A study of Mus musculus with 12 samples.

Results

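The report describes 10 genes, taken as the rows of the counts table that map to Mettl5, Trmt112, Zcchc4, Dimt1, Bud23, Emg1, Nat10, Thumpd1, Tsr3 and Fbl, and all 10 of 10 were found among 55487 genes. Each of 6 mice gave 1 liver and 1 brain library of total RNA, 12 in all. The 3 mice A, C and F are labelled KO and the 3 mice B, D and E are labelled WT, which gives 4 groups of 3 libraries, WT liver, KO liver, WT brain and KO brain. The KO mice carry a whole-body loss of Mettl5, made by floxing exon 2 in hybrid C57bl/6 x 129S6 ES cells, backcrossing to B6 and crossing to a CMV-cre line, so that Cre acts in all tissues from early on. The labels call the controls WT, while the text of the study describes the controls of this RNA-seq as heterozygous. WT stands here for the libraries so labelled, and a percentage of the WT level is relative to them, whichever genotype they carry. The labels give no age, sex, litter or batch and name no treatment. Each library is 1 mouse, and whole-tissue RNA cannot tell fewer cells of a type from less RNA per cell.

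Ribosomal RNA is modified while the ribosome is assembled in the nucleolus and nucleus, and a small set of stand-alone enzymes each place 1 kind of mark at 1 or a few conserved bases. METTL5 places N6-methyladenosine (m6A) on 18S rRNA, the RNA of the small ribosomal subunit, and ZCCHC4 places it on 28S rRNA, the RNA of the large subunit. TRMT112 is a small cofactor protein that METTL5 and several other methyltransferases need to be stable, among them BUD23, which places 7-methylguanosine on 18S rRNA. DIMT1 dimethylates a pair of adjacent adenosines near the end of 18S rRNA. EMG1 and TSR3 act in turn on the same hypermodified uridine of 18S rRNA, and NAT10 acetylates cytidines of 18S rRNA and, with its adaptor THUMPD1, of tRNA. Fibrillarin, encoded by Fbl, methylates the ribose and not the base, guided by small nucleolar RNAs, and acts at many sites.

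The sequences below are reference sequence, shown for the exon that the knockout allele removes and for a catalytic motif of the m6A enzymes METTL5 and ZCCHC4. In mm10, Mettl5 (gene ENSMUSG00000051730.15) spans chr2:69871198-69885615 on the minus strand. Its exon 2, at chr2:69881297-69881411, is 115 bases long, all of them coding, and is found in 3 of the 4 annotated transcripts. It is printed 5′ to 3′ on the coding strand, with exon 2 in capitals and 30 bases of exons 1 and 3 in lower case on either side.
Mettl5 exon 2: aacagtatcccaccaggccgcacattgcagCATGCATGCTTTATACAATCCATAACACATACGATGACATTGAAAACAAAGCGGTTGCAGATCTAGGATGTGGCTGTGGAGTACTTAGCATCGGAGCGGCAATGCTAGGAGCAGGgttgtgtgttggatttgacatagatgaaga
Division of the 115 bases by 3 leaves a remainder of 1, so a transcript that joins exon 1 to exon 3 is out of frame. In the joined sequence the first stop codon, in capitals here, stands 20 bases past the junction in exon 3. The predicted frame is 43 codons long, of which the first 109 bases are from exon 1, while the intact frame has 209 codons.
Exon 1 joined to exon 3: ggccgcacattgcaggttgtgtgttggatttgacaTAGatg
The codons of the catalytic motif, in capitals below with 15 bases on either side, lie downstream of that stop in Mettl5, at codons 126 to 129 in exon 3 of 7 (chr2:69880786-69880797, minus strand). In Zcchc4 they are codons 274 to 277 in exon 7 of 12 (chr5:52807023-52807034, plus strand).
Mettl5 motif: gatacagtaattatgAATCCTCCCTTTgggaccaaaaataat
Zcchc4 motif: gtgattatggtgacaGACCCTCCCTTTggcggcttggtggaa

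**Figure D1:**
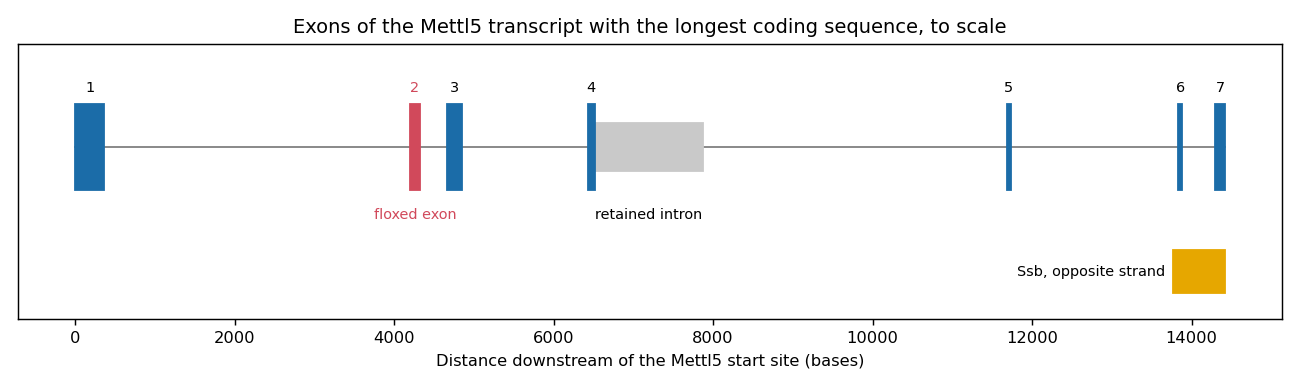
The map draws the exons of the Mettl5 transcript with the longest coding sequence as numbered boxes along the distance in bases from its start site, with exon 2 in red, the bases that a retained intron adds after exon 4 in grey and the end of Ssb on the opposite strand in yellow. Exon 2 is 115 bases, while the retained intron adds 1354 bases.

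The deposited counts sum the reads over all exons of a gene. Exon 2 makes up 4.72% of the 2437 counted bases of Mettl5, so a count for the gene is mostly made of exons that the allele leaves in place, and reads from a transcript without exon 2 are still counted. The counted bases also hold 1354 bases of a retained intron that 1 annotated transcript form adds after exon 4. The last 649 bases of Mettl5 overlap Ssb on the opposite strand, of which 169 are exonic in both (6.9% of the counted bases of Mettl5). The counting used strand.

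Libraries held 16145754 to 21623180 counts in liver and 14403309 to 18365114 in brain. Levels are given as CPM, the counts of a gene scaled to a common library size, with TMM factors over all 12 libraries that correct for differences in the make-up of the RNA. Hepatocyte markers summed to 85959.5 to 112551.8 CPM in liver and 89.4 to 302.5 CPM in brain, and neuronal markers to 1972.3 to 2433.7 CPM in brain and 10.5 to 21.5 CPM in liver, so the tissues were as labelled. The mitochondrial rRNAs took 10.7% to 16.9% of counts in WT liver, 7.36% to 8.66% in KO liver, 7.63% to 17.7% in WT brain and 21.4% to 31.6% in KO brain. One mouse of each genotype, E and F, was low in Y-linked transcripts. A gene was called at an adjusted p under 0.1, from the quasi-likelihood test of edgeR, with p-values adjusted by Benjamini-Hochberg across every gene in that fit.

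Mettl5, the targeted gene, was lower in every KO library than in every WT library of the same tissue. In WT liver it stood at 19.0 CPM in mouse B, 10.1 in D and 10.4 in E (290, 127 and 147 counts). In KO liver it stood at 4.94 CPM in A, 4.64 in C and 5.23 in F (64, 65 and 78 counts). The KO libraries lay close together, with an SD of 0.291 CPM around a mean of 4.94 (n = 3), while mouse B alone made the WT group wide, at 13.2 ± 5.03 CPM (SD, n = 3). The log2 fold change of KO over WT was -1.44 (SE 0.27, 95% interval -2.05 to -0.84), which left Mettl5 at 36.8% of the WT level. Its unadjusted p was 4.27e-04 and its adjusted p was 0.383 by edgeR, so it was not called. Without mouse D the log2 fold change was -1.59 and the adjusted p 0.0848, and without mouse B they were -1.10 and 0.985. DESeq2 gave -1.44 with an adjusted p of 0.00193.

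In brain the level of Mettl5 was lower in both genotypes. WT brain held 7.13 CPM in B, 4.66 in D and 3.96 in E, and KO brain 2.61 in A, 3.12 in C and 3 in F. Mouse B was again the highest of the WT mice, and the groups did not overlap. The log2 fold change was -0.84 (SE 0.27, 95% interval -1.45 to -0.23), or 55.9% of the WT level, with an unadjusted p of 0.0123 and an adjusted p of 0.373 by edgeR. DESeq2 gave an adjusted p of 0.23 and called no member in brain, beside 0.847% of 31774 genes. Without mouse B the log2 fold change was -0.55. Counts were low here, at 41 to 58 in KO brain, where counting error alone is 15.6% of the lowest. An exact permutation test of the mean CPM, two-sided, gave p = 0.1 for liver and for brain, and 3 against 3 libraries can give no smaller p. The difference between the tissues in the effect of genotype on Mettl5 was -0.58 (SE 0.41, adjusted p 0.641), so a larger effect in liver was not shown. Over 13 alternative settings it ran from -0.65 to -0.28 and was never called.

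Regional markers of brain also separated the brain libraries by genotype, and the values stand here beside every brain comparison. The 9 olfactory bulb markers summed to 66.5 to 92.3 CPM in KO brain and 18 to 25.4 CPM in WT brain, and 8 of 9 were higher in all 3 KO libraries. The 9 cerebellar markers summed to 621.4 to 1255.1 CPM in KO and 1744.5 to 2352.6 CPM in WT brain, and 9 of 9 were lower in all 3 KO libraries. Choroid plexus markers summed to 94.2 to 150.4 CPM in KO and 185.2 to 321 CPM in WT brain, with 4 of 9 lower in all 3. None of these markers was at 0 in all libraries of a brain group. Over all genes in brain, 8.42% were higher and 7.95% lower in every KO library than in every WT library. In liver, the 5 B cell markers summed to 9.31 to 15.1 CPM in KO and 30.2 to 178.5 CPM in WT, with 2 of 5 lower in all 3 KO libraries. Of 9 hepatocyte markers, 2 were higher and 1 lower in all 3 KO libraries. Of 6 markers of hepatic endothelium and stellate cells, 2 were higher and none lower. Over all genes in liver, 8.03% were higher and 5.18% lower in every KO library than in every WT library. The part of these markers in the values of the enzymes was not tested. With mitochondrial genes left out of the library sizes, Mettl5 was at -1.44 in liver and -0.83 in brain.

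**Figure D2:**
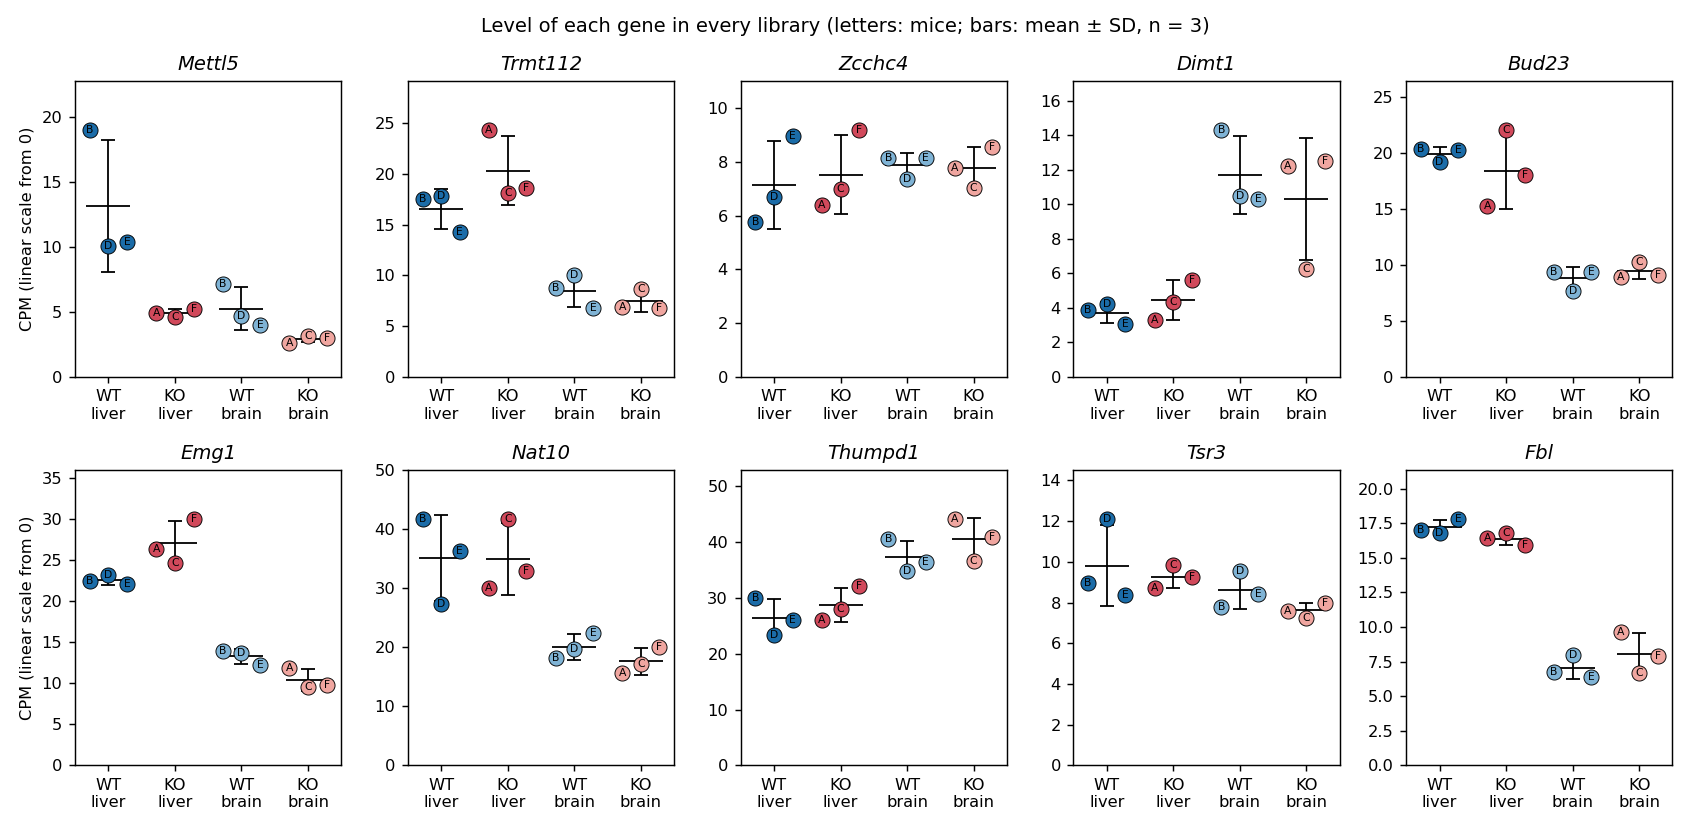
Each panel plots 1 gene, with CPM on a linear axis from 0 for the 3 libraries of each group, lettered by mouse, and the mean ± SD as bars. Mettl5 is lower in KO than in WT in both tissues, while of the other genes some overlap between KO and WT within a tissue and some, such as Emg1, do not.

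None of the 10 genes was called between KO and WT by edgeR, in liver or in brain. In these main fits Mettl5 was the 1 gene of 10 with an unadjusted p under 0.05 in each, which in brain did not hold in every alternative setting. In liver the background was 0% of 14075 genes called (7.33% at an unadjusted p under 0.05), and in brain 0.064% of 17188 genes (11% at an unadjusted p under 0.05). DESeq2 called 1 of the 10, Mettl5, in liver, beside 0.631% of 27088 genes. Leaving Mettl5 aside, the log2 fold changes of the 9 other genes had a range of -0.14 to 0.27 and a median of 0.05 in liver, and a range of -0.34 to 0.20 and a median of -0.17 in brain. Over all genes tested the median was 0.00 in each tissue and the median size of a change was 0.17 in liver and 0.22 in brain. In liver 5 of the 9 were higher and 4 lower, and in brain 3 were higher and 6 lower. Libraries of the 2 genotypes did not overlap for 4 of the 10 genes in liver (Mettl5, Trmt112, Emg1 and Fbl), where 13.2% of all genes did not overlap (8.03% higher and 5.18% lower in KO), and for 2 of 10 in brain (Mettl5 and Emg1), where 16.4% did not (8.42% higher and 7.95% lower in KO).

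Trmt112, the cofactor that METTL5 shares with BUD23, was not lower in KO liver. It stood at 24.3 CPM in A, 18.1 in C and 18.6 in F, against 17.5 in B, 17.8 in D and 14.3 in E. All 3 KO libraries lay above the WT libraries, C by little. The log2 fold change was 0.27 (SE 0.17, 95% interval -0.11 to 0.65, adjusted p 0.794 by edgeR). Leaving out 1 mouse gave 0.12 to 0.34, the lowest without mouse A. In brain KO libraries held 6.89, 8.68 and 6.78 CPM in A, C and F, and WT libraries 8.70, 10 and 6.77 in B, D and E. These overlapped, with a log2 fold change of -0.18 (SE 0.20, 95% interval -0.64 to 0.27, adjusted p 0.723). Leaving out 1 mouse gave -0.32 to -0.06 in brain. Trmt112 shares 409 exonic bases, 33.2% of its counted bases, with Prdx5 on the opposite strand, and Prdx5 was at 107.5 ± 16.3 CPM in KO and 113.2 ± 18.9 CPM (SD, n = 3) in WT liver.

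Bud23, the other rRNA enzyme that TRMT112 serves, was at 15.2, 22.0 and 18.0 CPM in KO liver (A, C, F) and 20.3, 19.2 and 20.2 CPM in WT liver (B, D, E). The KO libraries spread on both sides of the narrow WT group, with a log2 fold change of -0.14 (SE 0.16, adjusted p 0.911). In brain Bud23 was at 9.40 ± 0.708 CPM in KO libraries and 8.78 ± 0.986 CPM (SD, n = 3) in WT libraries, a log2 fold change of 0.10 (SE 0.17, adjusted p 0.822). The 95% intervals, -0.51 to 0.23 in liver and -0.28 to 0.48 in brain, leave room for changes of that size either way.

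Zcchc4, which carries the other rRNA m6A activity, had nearly the same level in the 2 genotypes. Its log2 fold change was 0.05 (SE 0.25, 95% interval -0.51 to 0.61) in liver and -0.01 (SE 0.17, 95% interval -0.40 to 0.37) in brain, with adjusted p of 0.987 and 0.981 by edgeR. In liver KO libraries held 6.41, 7 and 9.18 CPM in A, C and F and WT libraries 5.76, 6.70 and 8.95 in B, D and E. The highest of each genotype were F and E, the mice low in Y-linked transcripts. No other member had both F and E as the highest of their genotype in liver. A link to Y-linked transcripts was not tested. Per kb of transcript, Mettl5 stood at 6.92 to 19.6 times Zcchc4 in WT liver and at 3.38 to 4.55 times in KO liver, and at 2.88 to 5.18 times in WT brain and 2 to 2.62 times in KO brain. Per kb of counted bases the ratios were lower, at 5.21 to 14.7 in WT liver and 2.54 to 3.45 in KO liver. In brain they were 2.17 to 3.92 in WT and 1.5 to 1.98 in KO on that scale. The highest ratio in WT liver was that of mouse B, with the highest Mettl5 (19 CPM) and the lowest Zcchc4 (5.76 CPM) of its group. The part of each gene in the ratios was not tested.

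Emg1, the methyltransferase that acts before TSR3 on the hypermodified uridine, had opposite signs in the 2 tissues. In liver it was at 26.4, 24.7 and 30 CPM in KO mice A, C and F and at 22.4, 23.2 and 22.1 CPM in WT mice B, D and E. Every KO liver library lay above the WT libraries, with a log2 fold change of 0.23 (SE 0.13, 95% interval -0.06 to 0.53, adjusted p 0.766). In brain it was at 11.9, 9.59 and 9.74 CPM in KO and 13.9, 13.7 and 12.2 CPM in WT. Every KO brain library lay below the WT libraries, with a log2 fold change of -0.34 (SE 0.16, 95% interval -0.70 to 0.02, unadjusted p 0.0592, adjusted p 0.464). The difference between tissues was tested in 1 fit over all 12 libraries and was 0.61 (SE 0.21, 95% interval 0.16 to 1.06, unadjusted p 0.0113, adjusted p 0.347 by edgeR), so it was not called. With liver and brain of each mouse paired, it was again 0.61, with an adjusted p of 0.529.

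Tsr3, which completes that uridine, was at 9.28 ± 0.569 CPM in KO and 9.82 ± 2.01 CPM in WT liver, and at 7.61 ± 0.357 CPM in KO and 8.59 ± 0.893 CPM (SD, n = 3) in WT brain. Its log2 fold changes were -0.11 (SE 0.20, adjusted p 0.956) and -0.17 (SE 0.17, adjusted p 0.693). Dimt1, the adenosine dimethylase, was the least precise of the 10 in liver, with 43 to 84 counts per library. In liver it was at 3.32, 4.36 and 5.63 CPM in A, C and F and at 3.86, 4.22 and 3.05 CPM in B, D and E, a log2 fold change of 0.23 (SE 0.29, 95% interval -0.43 to 0.89). Over 14 alternative settings it ran from 0.03, without mouse F, to 0.44. In brain the KO libraries were at 12.2, 6.24 and 12.5 CPM and the WT libraries at 14.3, 10.5 and 10.3 CPM. Mouse C alone was low among the KO brains, and the log2 fold change of -0.17 (SE 0.27, adjusted p 0.811) became 0.09 without it.

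Nat10, the acetyltransferase, also lies on chromosome 2, at chr2:103721256-103761270. In liver it was at 30.1, 41.7 and 32.9 CPM in KO and 41.7, 27.3 and 36.3 CPM in WT, so that both groups spanned nearly the same range, and the log2 fold change was -0.04 (SE 0.18, adjusted p 0.987). In brain it was at 17.7 ± 2.22 CPM in KO and 20.1 ± 2.20 CPM (SD, n = 3) in WT, a log2 fold change of -0.18 (SE 0.16, adjusted p 0.655). Its adaptor Thumpd1 had log2 fold changes of 0.09 (SE 0.14, adjusted p 0.945) in liver and 0.12 (SE 0.14, adjusted p 0.722) in brain. Thumpd1 was the most deeply counted of the 10 in brain, with 645 to 919 counts per library. Its 95% intervals were -0.23 to 0.41 in liver and -0.18 to 0.43 in brain.

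Fbl was among the tightest of the 10 in liver, at 16.4, 16.8 and 15.9 CPM in KO and 17.0, 16.8 and 17.8 CPM in WT. The highest KO and the lowest WT library read the same to 3 digits, and the log2 fold change was -0.10 (SE 0.13, 95% interval -0.40 to 0.20, adjusted p 0.931). In brain Fbl was at 9.63, 6.70 and 7.92 CPM in KO and 6.78, 7.96 and 6.41 CPM in WT. Mouse A was the highest, and the log2 fold change was 0.20 (SE 0.20, 95% interval -0.24 to 0.64, adjusted p 0.694). Without mouse A it was 0.05.

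**Figure D3:**
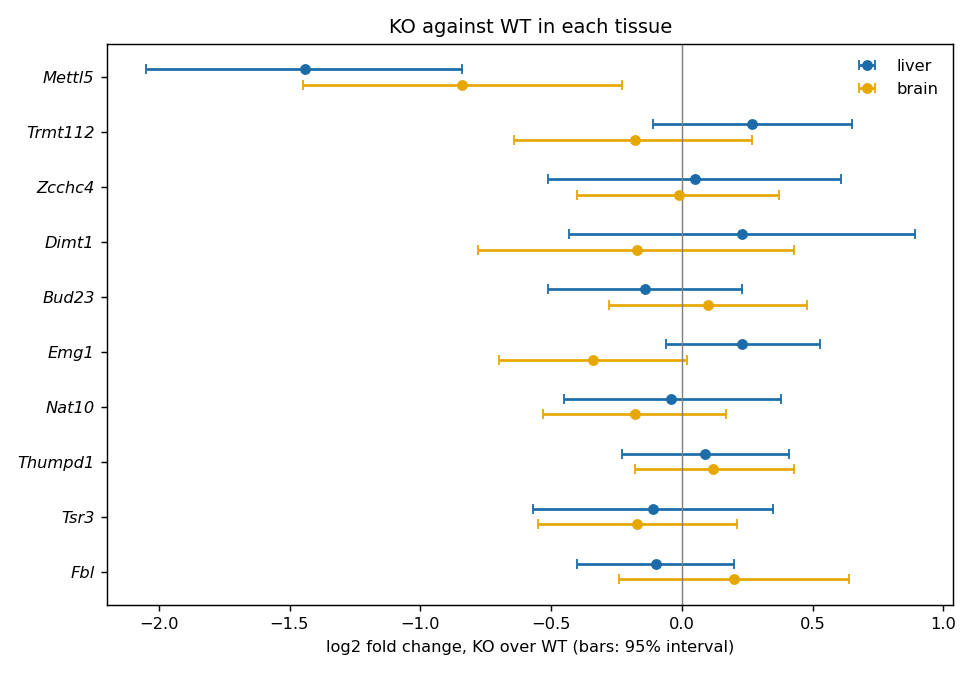
The plot gives the log2 fold change of KO over WT for each gene in liver (blue) and brain (yellow), with bars for the 95% interval. The intervals of Mettl5 lie below 0 in both tissues, -2.05 to -0.84 in liver and -1.45 to -0.23 in brain, and those of the other 9 genes include 0.

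None of the 10 genes was called for a difference in genotype effect between liver and brain by edgeR or by DESeq2, beside a background of 0% of 18944 genes by edgeR (10.6% at an unadjusted p under 0.05) and 1.07% of 34388 genes by DESeq2. Emg1 was the 1 gene of 10 with an unadjusted p under 0.05. The differences of the 10 ran from -0.58 for Mettl5 to 0.61 for Emg1, with a median of 0.10 against 0.04 over all genes. Trmt112 was at 0.49 (SE 0.28, 95% interval -0.11 to 1.08, adjusted p 0.561) and Dimt1 at 0.44 (SE 0.41, adjusted p 0.722). The pairing by mouse called 68 genes in all (0.359%) and none of the 10.

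Ssb, which encodes the La protein that binds the ends of new small RNAs, was read because its end overlaps that of Mettl5. In liver it was at 30.4, 22.3 and 25.6 CPM in KO mice A, C and F and at 84.3, 34.1 and 67.9 CPM in WT mice B, D and E. In brain it was at 116.3, 78.8 and 74.6 CPM in KO and at 59.7, 36.3 and 59.5 CPM in WT. The KO libraries were thus all lower in liver and all higher in brain, whereas Mettl5 was lower in both. None of the single-tissue values was called by edgeR (adjusted p 0.428 in liver and 0.355 in brain), and DESeq2 gave 0.00411 and 0.0903.

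In WT mice 8 of the 10 genes were called between liver and brain, 6 of them higher in liver and 2 higher in brain, beside a background of 78.3% of 17694 genes called (35.4% higher and 42.9% lower in liver). In KO mice the same 8 genes were called in the same directions, beside 80.2% of 17396 genes (36.2% higher and 44.1% lower in liver). The share of members called was thus near the background in each. The median of the 10 was 0.80 in WT and 0.86 in KO mice, and over all genes -0.16 and -0.17.

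Mettl5, Bud23 and Fbl had the largest values toward liver in WT mice. Mettl5 was higher in liver by a log2 fold change of 1.34 (SE 0.31, adjusted p 0.00259) in WT mice and 0.75 (SE 0.25, adjusted p 0.0205) in KO mice, with no overlap of liver and brain in either. In KO mice that call was lost without mouse A (0.70, adjusted p 0.102) and without mouse F (0.74, adjusted p 0.113). With library totals and no scaling factors the Mettl5 call was lost in both genotypes, at 0.49 (adjusted p 0.145) in WT and 0.21 (adjusted p 0.51) in KO mice. Bud23 was at 1.19 (SE 0.17, adjusted p 1.11e-04) in WT and 0.96 (SE 0.19, adjusted p 0.00109) in KO mice. Fbl was at 1.29 (SE 0.18, adjusted p 6.57e-05) and 1.02 (SE 0.19, adjusted p 7.72e-04). Trmt112 was also higher in liver, at 0.97 (SE 0.20, adjusted p 0.00131) in WT and 1.44 (SE 0.20, adjusted p 9.66e-05) in KO mice.

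Emg1 and Nat10 completed the set that was higher in liver. Emg1 was at 0.78 (SE 0.16, adjusted p 0.00107) in WT and 1.37 (SE 0.17, adjusted p 4.80e-05) in KO mice, and Nat10 at 0.81 (SE 0.19, adjusted p 0.00234) and 0.98 (SE 0.18, adjusted p 6.70e-04). Thumpd1 went the other way from its partner Nat10, at -0.49 (SE 0.16, adjusted p 0.0170) in WT and -0.50 (SE 0.15, adjusted p 0.0142) in KO mice. Per kb of transcript, Nat10 stood at 0.713 to 1.03 times Thumpd1 over the 6 liver libraries and at 0.248 to 0.428 times over the 6 brain libraries. Per kb of counted bases the ratios were lower, at 0.427 to 0.621 in liver and 0.149 to 0.257 in brain. The Thumpd1 call in KO mice was lost without mouse A (-0.35, adjusted p 0.155).

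Dimt1 was the 1 enzyme of the 10 with a log2 fold change below -1. It was higher in brain in both genotypes, with log2 fold changes of liver over brain of -1.64 (SE 0.24, 95% interval -2.18 to -1.10, adjusted p 1.15e-04) in WT and -1.21 (SE 0.32, 95% interval -1.93 to -0.50, adjusted p 0.00586) in KO mice. Kif2a, a kinesin on the opposite strand, shares 1229 exonic bases with Dimt1, 31.9% of its counted bases. Kif2a was at 52.7 ± 3.75 CPM in WT brain and 18.0 ± 1.01 CPM in WT liver, and at 59.3 ± 3.11 CPM and 16.4 ± 1.69 CPM (SD, n = 3) in KO mice, so it differed in the same direction as Dimt1. The part of Kif2a reads in the Dimt1 counts was not tested. Lpcat3, which shares 334 exonic bases (7.2%) with Emg1, had a higher mean in liver, at 57.6 ± 5.66 CPM against 5.16 ± 0.440 CPM (SD, n = 3) in WT mice, and Prdx5 was at 113.2 ± 18.9 CPM against 67.4 ± 9.71 CPM. Esrra, which shares 73 exonic bases (5.9%) with Trmt112, was at 12.3 ± 1.39 CPM in WT liver and 14.2 ± 0.694 CPM (SD, n = 3) in WT brain, the direction opposite to Trmt112. Dnajc30, which shares 436 exonic bases (12.9%) with Bud23, was at 12.7 ± 1.55 CPM in WT liver and 7.88 ± 1.27 CPM (SD, n = 3) in WT brain, the direction of Bud23. Baiap3, which shares 140 exonic bases (11.7%) with Tsr3, was at 0.1 ± 0.0874 CPM in WT liver and 9.62 ± 5.25 CPM in WT brain.

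Zcchc4 and Tsr3 were not called between the tissues. Zcchc4 was at -0.14 (SE 0.23, 95% interval -0.65 to 0.37, adjusted p 0.609) in WT and -0.05 (SE 0.22, 95% interval -0.55 to 0.45, adjusted p 0.845) in KO mice. Tsr3 was at 0.20 (SE 0.21, 95% interval -0.28 to 0.68, adjusted p 0.419) and 0.28 (SE 0.19, 95% interval -0.14 to 0.71, adjusted p 0.201). The directions of the tissue values depend on how libraries are scaled. With library totals and no scaling factors the median of all genes moved to -0.99 in WT and -0.71 in KO mice, and Emg1 and Nat10 came to -0.06 and -0.03 in WT mice. In WT mice the calls of Mettl5, Trmt112, Bud23, Emg1 and Nat10 were lost there, and Zcchc4 (-0.96) and Tsr3 (-0.64) were called lower in liver. Relative to that median, Emg1 was at 0.93 and Nat10 at 0.96, close to the 0.94 and 0.97 found with scaling.

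**Figure D4:**
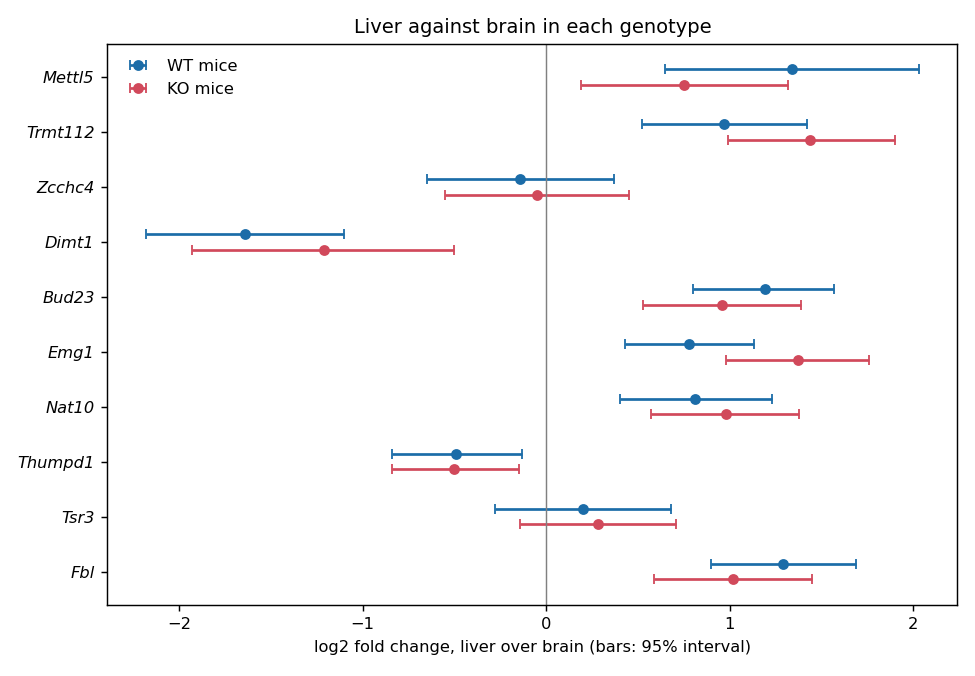
The plot gives the log2 fold change of liver over brain for each gene in WT mice (blue) and KO mice (red), with bars for the 95% interval. The 6 genes higher in liver lie to the right of 0 and Dimt1 and Thumpd1 to the left in both genotypes, while the intervals of Zcchc4 and Tsr3 include 0.

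Levels of different genes were compared per kb, with the length of the transcript that has the longest coding sequence. In WT liver Emg1 was the highest at 21.8 ± 0.550 CPM per kb, followed by Trmt112 at 16.8 ± 1.93, Fbl at 14.4 ± 0.454, Mettl5 at 13.6 ± 5.19 and Bud23 at 13.1 ± 0.389 (SD, n = 3). Libraries of neighbours in this order overlapped from Trmt112 to Bud23, so neighbours there are not ranked, though Trmt112 and Fbl each lay above Bud23 in all 3 libraries with no overlap. A middle set of Thumpd1 at 9.84 ± 1.22, Nat10 at 9.04 ± 1.88 and Tsr3 at 8.24 ± 1.69 CPM per kb also overlapped. Dimt1 at 1.81 ± 0.292 and Zcchc4 at 1.24 ± 0.285 CPM per kb were the lowest and overlapped. The spread of Mettl5 came from mouse B.

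In KO liver Mettl5 stood at 5.10 ± 0.301 CPM per kb and held the eighth place, below Tsr3 and above Dimt1 with no overlap with either. In WT brain Thumpd1 was the highest at 13.9 ± 1.10 CPM per kb and overlapped with Emg1 at 12.8 ± 0.854. The 7 genes from Trmt112 at 8.63 ± 1.66 to Nat10 at 5.17 ± 0.566 CPM per kb overlapped from each to the next, with Mettl5 among them at 5.42 ± 1.72. Zcchc4 was again the lowest at 1.37 ± 0.0789 CPM per kb, with no overlap. In KO brain Mettl5 was at 3.01 ± 0.274 CPM per kb, between Nat10 and Zcchc4 without overlap.

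Both lengths are approximate, since the transcript in use was not measured. Per kb of all counted exonic bases, which hold retained introns and long alternative ends, Mettl5 was at 5.41 ± 2.06 CPM per kb in WT liver and held the fifth place. On that scale Trmt112 at 13.4 ± 1.54 and not Emg1 at 4.87 ± 0.123 CPM per kb was the highest in WT liver. Zcchc4 was the lowest in all 4 groups on both scales. Per kb of transcript, Trmt112 stood at 0.903 to 1.71 times Mettl5 in WT liver and at 3.48 to 4.84 times in KO liver, and at 1.2 to 2.12 times in WT brain and 2.22 to 2.74 times in KO brain. Per kb of counted bases these ratios were 1.82 to 3.47 in WT liver, 7.06 to 9.70 in KO liver, 2.41 to 4.26 in WT brain and 4.47 to 5.50 in KO brain, so which of the genes is higher in WT mouse B depends on the length used. Trmt112 stood at 1.10 to 1.42 times Bud23 in WT liver and 1.27 to 2.47 times in KO liver per kb of transcript, and at 1.95 to 2.54 and 2.26 to 4.39 times per kb of counted bases, so the genotypes overlap on both scales.

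**Figure D5:**
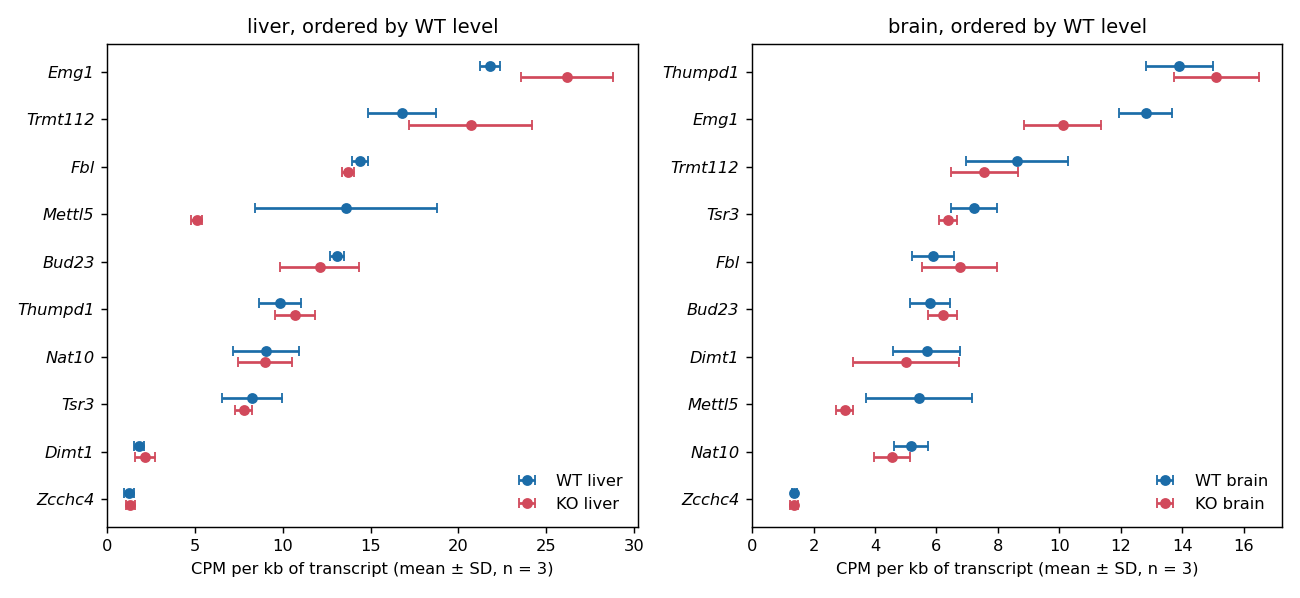
The plot gives the mean level per kb of transcript, in CPM per kb on a linear axis from 0, with SD bars (n = 3), for WT (blue) and KO (red) libraries of liver and brain, with genes ordered by the WT level. Mettl5 is at 13.6 in WT and 5.10 CPM per kb in KO liver and at 5.42 and 3.01 in brain, and Zcchc4 is the lowest gene in both tissues.

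Other genes of rRNA modification, and 5 partners of TRMT112 that act on other molecules, were read as lists, 26 genes in all. None of the 25 tested in liver and none of the 26 tested in brain was called between KO and WT by edgeR (0% and 0.064% of all genes) or by DESeq2 (0.631% and 0.847%). At an unadjusted p under 0.05 there was 1 in liver, Naf1, and 2 in brain, Nop2 and Nop58, both shares below the 7.33% and 11% over all genes. Their median log2 fold change was 0.03 in liver and 0.05 in brain, against 0.00 over all genes. Naf1, an assembly factor of the pseudouridylating box H/ACA particles, was at 7.26, 8.43 and 7.57 CPM in KO liver and 6.22, 4.46 and 5.11 CPM in WT liver, a log2 fold change of 0.53 (SE 0.22, adjusted p 0.659). In brain it was at -0.00 (SE 0.16).

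The other partners of TRMT112 (N6amt1, Alkbh8, Trmt11, Thumpd2 and Thumpd3), which act on proteins, tRNA and other RNA, had a median of -0.19 in liver and 0.21 in brain. In liver 4 of the 5 were lower and in brain all 5 were higher, with none called in either. The largest value in both was that of Alkbh8, a tRNA wobble uridine enzyme, at -0.22 (SE 0.15, adjusted p 0.821) in liver and 0.38 (SE 0.18, adjusted p 0.463) in brain. The 3 other nucleolar base methyltransferases Nop2, Nsun5 and Rrp8 had a median of 0.10 in liver and -0.23 in brain. Nop2, a cytosine methyltransferase of 28S rRNA, was at 10.6, 9.02 and 10.6 CPM in KO brain and 12, 13.4 and 14.7 CPM in WT brain, with a log2 fold change of -0.40 (SE 0.16, adjusted p 0.415). Rrp8, which methylates an adenosine of 28S rRNA at its N1, had the largest value of that list in liver, at 0.25 (SE 0.18, adjusted p 0.841).

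Among the genes of ribose methylation, Nop58, a core protein beside fibrillarin in box C/D particles, had the largest values. It was at 43.2, 34.6 and 38.7 CPM in KO brain and 31.3, 23.9 and 32.8 CPM in WT brain, a log2 fold change of 0.41 (SE 0.16, adjusted p 0.416), and at -0.37 (SE 0.18, adjusted p 0.722) in liver. The list had a median of -0.11 over 4 genes in liver and -0.01 over 5 in brain. In the pseudouridylation list, Dkc1, the pseudouridine synthase, had the largest brain value at 0.31 (SE 0.15, adjusted p 0.471), and the list's medians were 0.06 in liver and 0.10 in brain. The 7 genes listed for mitochondrial rRNA had medians of 0.12 in liver and 0.03 in brain. Mrm2, a ribose methyltransferase, had their largest liver value at 0.39 (SE 0.24, adjusted p 0.794), and Trmt61b their largest brain value at 0.18 (SE 0.19, adjusted p 0.706). The annotation types the Trmt61b row as antisense, with no coding transcript, so its counts are not shown to be those of an enzyme.

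Between the tissues, 15 of the 26 genes were called in WT mice (9 higher and 6 lower in liver) and 17 in KO mice (9 higher and 8 lower), which is 57.7% and 65.4% of the list against the backgrounds of 78.3% and 80.2%. Nop2, Nsun5 and Rrp8 were all called higher in liver in both genotypes, with medians of 0.66 in WT and 1.04 in KO mice. Of all genes, 35.4% in WT and 36.2% in KO mice were called higher in liver. The list genes were not tested with library totals and no scaling factors. In that setting the median of all genes moved to -0.99 in WT and -0.71 in KO mice, so the directions given here depend on the scaling. Among the TRMT112 partners, Alkbh8 was lower in liver, at -1.15 (SE 0.20, adjusted p 3.39e-04) in WT and -1.73 (SE 0.16, adjusted p 4.06e-06) in KO mice. Of the other partners, Thumpd3 was called higher in liver in WT mice at 0.49 (adjusted p 0.026) and N6amt1 lower in KO mice at -0.63 (adjusted p 0.0306). Ftsj3, a nucleolar methyltransferase, was higher in liver at 1.63 (SE 0.19, adjusted p 1.81e-05) and 1.54 (SE 0.19, adjusted p 4.44e-05). Nop56, the box C/D core protein, was lower in liver at -0.81 (SE 0.15, adjusted p 5.04e-04) and -0.78 (SE 0.17, adjusted p 0.00210), in the direction opposite to fibrillarin, its partner in the same particle.

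Fbll1, a relative of fibrillarin, had counts in every brain library and next to none in liver. Its brain libraries held 113 to 195 counts, with means of 7.08 ± 0.649 CPM for the WT mice and 7 ± 1.19 CPM (SD, n = 3) for the KO mice, and its liver libraries held 0 or 1 count. Set against a floor of 3 counts per liver library, which covers counting error only, it was at least 32.7-fold lower in liver in WT and at least 32.5-fold lower in KO mice. Nop10 of the box H/ACA particle was higher in liver at 1.42 (SE 0.26, adjusted p 5.60e-04) in WT and 1.39 (SE 0.27, adjusted p 9.14e-04) in KO mice. Nsun4, a mitochondrial rRNA methyltransferase, was higher at 1.61 (SE 0.25, adjusted p 1.82e-04) and 1.86 (SE 0.28, adjusted p 1.52e-04).

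The genes whose pattern was most like that of Mettl5 were sought over the 12 libraries, by Pearson correlation of log2 CPM after each tissue was centred. Over 12573 genes compared, the highest values were 0.91 for Olfm3 and Lyar and 0.89 for Aldh1l2, Ppil1 and G6pdx. These libraries share mice, and the centred values carry the genotype difference of Mettl5 itself, so the correlations describe these libraries and no more. Each of the 5 had negative log2 fold changes in both tissues, at -1.14 to -0.54 in liver and at -0.87 to -0.21 in brain, and none was called. That sign follows from the choice of genes, since Mettl5 was lower in every KO library, and is no separate result. The other 9 members had correlations with Mettl5 from -0.25 for Zcchc4 to 0.23 for Nat10, and that of its cofactor Trmt112 was -0.10.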

How the data were processed

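Stranded total RNA libraries of liver and brain were sequenced as single-end reads. Per the labels and the methods of the study, the authors trimmed reads with Trimmomatic, aligned them to mm10 with STAR 2.7.3a and counted them over exons with featureCounts in reverse-stranded mode. The deposited values are raw counts per gene, with no normalisation. How reads shared by near-identical copies were counted is not given in the sources used here, and the pseudogenes Trmt112-ps1 and Trmt112-ps2 held at most 3 and 2 counts per library. Versioned identifiers of 54435 genes were in GENCODE M21, with the same start and end for all 54435, and symbols and sequences were taken from it.

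Counts were filtered with filterByExpr, scaled with TMM and tested with the quasi-likelihood test of edgeR 4.0.16 in R 4.3.3, each comparison on its own 6 libraries and the difference between tissues on all 12. Benjamini-Hochberg adjustment was over all genes tested. DESeq2 1.42.0, other scalings, no filter, leaving out each mouse, a Y-linked covariate, a GC and length offset and a mouse block were alternatives, and the per-kb scale by transcript was added after the data were seen. Correlations used a prior count of 2 on the log2 CPM scale. The code was checked on simulated counts. The 10 members, the lists and the tests were chosen with earlier results of these data known. Named genes were the members, Ssb, list members called or with the largest change of their list, and the 5 genes most like Mettl5. Prdx5, Esrra, Kif2a, Lpcat3, Dnajc30 and Baiap3 fall outside that rule and were named, after their values were seen, because they overlap members.

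Each tissue pair is from 1 mouse, by the letter in the labels; deviations of liver and brain from their group means correlated at -0.0387 (mouse B) to 0.141 (mouse F) over 12574 genes.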

Additional observations from a re-analysis of the deposited data

How the results depend on the processing

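The number of the 10 genes called in KO against WT liver was 0 and became 1, Mettl5, with DESeq2 (-1.44, adjusted p 0.00193), with no filter on low counts (-1.43, 4.29e-06), with a Y-linked covariate (-1.43, 0.071) and without mouse D (-1.59, 0.0848); leaving out 1 mouse gave 0 to 1, and Mettl5 from -1.59 to -1.10. In brain it became 1, Mettl5, with no filter (-0.86, 0.0936), and leaving out 1 mouse gave Mettl5 from -1 to -0.55. The sign of Mettl5 was the same in all 14 alternatives of each comparison. Over all genes, calls in liver ran from 0 to 443 and in brain from 2 to 1000, the highest with no filter.

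With library totals and no scaling factors, 5 of 10 genes (Dimt1, Thumpd1, Fbl, Zcchc4 and Tsr3) and not 8 were called between WT tissues, beside 82% of all genes. The calls of Mettl5 (0.49), Trmt112 (0.12) and Bud23 (0.35) were lost while Zcchc4 (-0.96) and Tsr3 gained one, as did Zcchc4 between KO tissues (-0.59, adjusted p 0.0579). Emg1 at -0.06, Nat10 at -0.03, Tsr3 at -0.64 and Ssb at -0.57 turned sign, and Tsr3 did so between KO tissues (-0.26). That setting moved the median of all genes to -0.99 and -0.71 between tissues, -0.23 between genotypes in brain and 0.32 for the difference between tissues. It also turned the sign of small, uncalled genotype values, Nat10 in liver (0.06), Bud23 (-0.12), Thumpd1 (-0.11) and Fbl (-0.04) in brain, and the differences of Bud23 (0.06) and Fbl (0.03). A GC and length offset turned the differences of Nat10 (-0.03) and Tsr3 (-0.09). In brain that offset moved Dimt1 to -0.52 (unadjusted p 0.0218 by edgeR) and Emg1 to -0.40 (0.0203), with no call. Emg1 in brain was also under 0.05 unadjusted by edgeR with library totals (-0.58, 0.00515) and all 12 libraries in the fit (-0.35, 0.0348). The same held without mouse A (-0.45, 0.0287), again with no call.

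Leaving out 1 mouse turned the sign of some uncalled values near 0. In liver Zcchc4 ran from -0.11 to 0.25, Nat10 from -0.18 to 0.10 and Tsr3 from -0.21 to 0.08. In brain Zcchc4 ran from -0.09 to 0.06 and Dimt1 from -0.34 to 0.09. Zcchc4 ran from -0.05 to 0.27 for the difference between tissues and from -0.14 to 0.07 between KO tissues. Between KO tissues, 6 to 8 of the 10 genes were called, beside 74.7% to 76.6% of all genes. The cause of these shifts was not tested.

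The replicate block by mouse changed no call among the 10 genes. It left the difference for Mettl5 at -0.55 (adjusted p 0.685) and that for Emg1 at 0.61 (0.529), and it called the difference for Ssb at -1.97 (0.0339), which was -2.05 (0.132) without it. Depth limits Mettl5 and Dimt1 most, with 41 and 43 counts in their lowest libraries.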
